A study of Rattus norvegicus with 12 samples.

Results

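Moving adult rat ventricular fibroblasts at passage 3 from plastic to a soft gel was examined with 6 of the 12 libraries of the series. In 3 of the libraries the cells were on tissue culture polystyrene, the stiff plastic that dishes are made of, and in the other 3 on poly(ethylene glycol) norbornene, a water-swollen synthetic polymer cast as a flat soft gel. They were chosen by their labels, which give the substrate, the passage and a replicate number. All cells were wild-type fibroblasts from rat heart grown in medium with 20% fetal bovine serum, and 48 h is the time stated for the treatment. The labels give neither the age, sex and strain of the animals nor the stiffness of either surface. A passage is one round of detaching cells and plating them again. The other 6 libraries hold the same substrates at passage 6 and serve here only for comparison.

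Cardiac fibroblasts build and maintain the collagen scaffold of the heart. They sense the stiffness of what they grow on through integrins and the actin cytoskeleton, and stiff surfaces are known to favour their activation into contractile, matrix-producing myofibroblasts. Culture on plastic is itself an activating condition, and soft hydrogels are used to bring cells closer to the compliance of healthy tissue. By its title, the series asks how substrate stiffness bears on activation, senescence and inflammatory secretion.

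The table gives Ensembl rat gene identifiers without gene names, and no identifier matched the gene table at hand, so pathways, matrix genes and cell type markers could not be followed by name. The label of the cells as fibroblasts could therefore not be checked against marker genes, and other cell types could not be looked for. The results concern the shape, size and reproducibility of the substrate difference, with 4 genes shown by identifier. In bulk RNA, fewer cells of a type and less RNA per cell cannot be told apart.

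Plastic libraries 1, 2 and 3 held 61840796, 69120841 and 60498549 counts in total, and soft gel libraries 1, 2 and 3 held 58482104, 57634698 and 58750450. Every soft gel library was thus shallower than every plastic one, and the main count was therefore repeated with all 6 libraries thinned to the smallest total, which changed it from 4020 to 4042 genes. The count of genes with at least 1 count ran from 16424 to 16613 over the plastic libraries and from 15927 to 16746 over the soft gel libraries, ranges that overlap. The replicate number was used as a pair, as the definition of the comparison asks. Within each pair of equal number, the 2 libraries departed from the averages of their groups in common genes.

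The substrate was the main difference among the 6 libraries. In a principal component analysis of the 500 most variable genes, the first component held 70.4% of the variance and separated the substrates, with scores of -15.3 to -11.2 on plastic and 9.78 to 14.6 on soft gel. The second component held 19.9% and ordered the pairs in the same way on both substrates, with pair 2 at -7.65 on plastic and -10.5 on soft gel and pair 3 at 8.32 and 7.01. Soft gel library 2 lay nearest to the plastic libraries on the first component. Its count distribution also differed most from its own group, since 7.20% and 8.16% of counts fell on different genes than in soft gel libraries 1 and 3, against 4.22% between those 2. Between plastic libraries this share was 4.63% to 5.12%, and between the plastic and the soft gel library of a pair it was 10.3% to 12.1%. The substrate thus moved a larger share of counts than separated any 2 libraries of one substrate.

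Of 14006 genes that passed the filter on low counts, 4020 differed between soft gel and plastic at an edgeR adjusted p under 0.05, or 28.7% of those tested. On soft gel 1853 genes were higher, 13.2% of those tested, and 2167 were lower, 15.5%. Most differences were small. Of the 4020 genes, 2378 differed by less than 1.5-fold and 818 by at least 2-fold, the latter split evenly into 408 higher and 410 lower. At least 4-fold changes were seen in 113 genes that rose and 77 that fell, and at least 8-fold changes in 26 and 19. Changes of at least 2-fold lay mostly among genes with few counts, by mean CPM (counts per scaled library total). Among the 818 genes, 209 averaged under 1 CPM, 380 from 1 to 10 and 178 from 10 to 100. Another 41 lay from 100 to 1000 CPM and 10 at 1000 CPM or more. Under 1 CPM the median standard error was 0.51 on the log2 scale, so small differences could hardly be called there. The median log2 fold change was 0.48 among genes called higher and -0.49 among genes called lower, with quartiles of 0.33 and 0.91 for the first and -0.83 and -0.33 for the second. Over all genes tested the median was -0.01.

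The balance of rises and falls among all called genes depends on how libraries are scaled. TMM, the scaling used here, put 46.1% of the called genes on the higher side, and DESeq2's size factors put 50.2% there (2036 higher, 2018 lower). When libraries were scaled by their totals alone, 3505 genes were called higher and 1424 lower, 71.1% higher, and the median log2 fold change of all genes tested moved to 0.12. The TMM factors of the plastic libraries were 0.943, 0.960 and 0.969 and those of the soft gel libraries 1.05, 1.03 and 1.06, with no overlap, so the composition of the libraries differed with the substrate. Without the pair term, 2109 genes were called, and each of the 2109 was among the 4020.

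**Figure D1:**
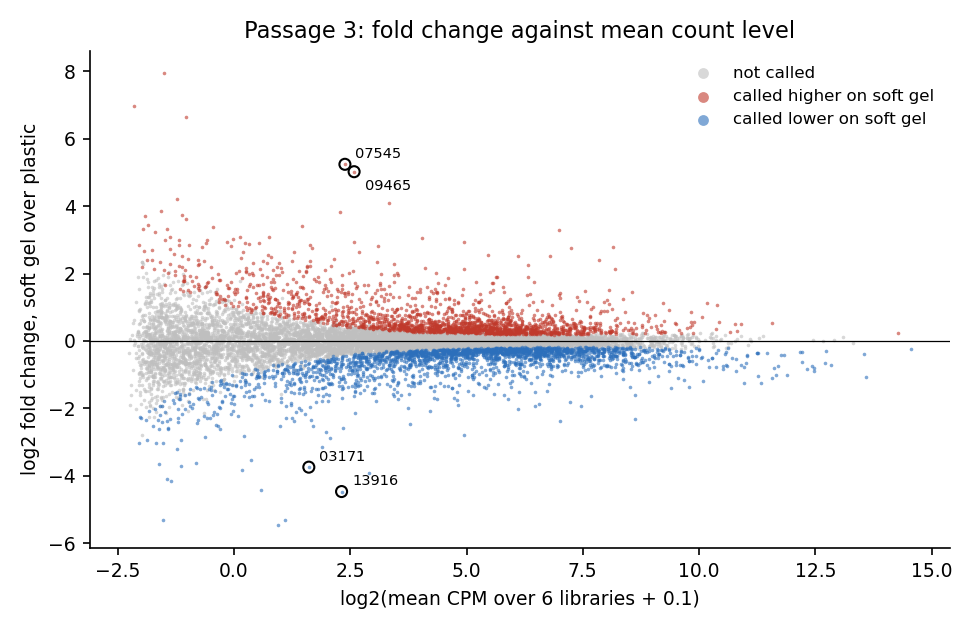
Log2 fold change of soft gel over plastic at passage 3 against the mean level, given as log2 of the mean CPM over 6 libraries plus 0.1, for 14006 genes. Grey points were not called, red points (1853) were called higher and blue points (2167) lower, and circles mark the 4 genes shown by identifier, labelled with the last digits.

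The calls were not spread evenly over count levels. Levels are CPM, counts per scaled library total and not divided by gene length, so a class holds genes with many reads and not necessarily many transcripts. From 10 to 100 CPM, 1048 of 6766 genes were called higher and 1039 lower. From 100 to 1000 CPM, 260 of 1693 were called higher and 506 lower. Among the 100 genes with a mean of at least 1000 CPM, 11 were called higher and 54 lower, and their median log2 fold change was -0.26. Falls thus outnumbered rises in the 2 classes with the most reads, and these classes were chosen after the data were seen. In the uppermost class this held under the other scalings, with 53 lower against 12 higher for DESeq2's size factors and 48 lower against 22 higher for library totals. The size of the fall depended on the scaling. The median log2 fold change of that class was -0.24 with DESeq2's size factors and -0.14 with library totals. From 10 to 100 CPM the even balance was seen with TMM alone among the 3 scalings, with 1170 higher and 946 lower for DESeq2's size factors and 2155 higher and 593 lower for library totals. In the class from 100 to 1000 CPM the excess of falls held with DESeq2's size factors (468 lower, 284 higher) and turned with library totals (309 lower, 527 higher).

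These 100 genes took 33.1%, 32.0% and 32.2% of all counts in plastic libraries 1, 2 and 3. In the soft gel libraries they took 28.5%, 28.7% and 28.5%. Each soft gel library was below each plastic one, a difference of the same sign in 3 of 3 pairs, and with 3 pairs an exact sign-flip test cannot go below p = 0.25. Taken over single pairs, the median log2 ratio of the 100 genes was -0.34, -0.27 and -0.24. The 6 libraries of passage 6 were not used to form the class. With TMM, 41 of the same 100 genes were called lower there and 2 higher. Of all genes tested at passage 6, 7.78% and 8.09% were called lower and higher, a background not matched for level. At passage 3 the share called was 10.3% under 1 CPM and 65.0% in the uppermost class. The median log2 fold change of the 100 genes at passage 6 was -0.37, and 88 of the 100 were below zero. At passage 3 fewer, 66 of the 100, were below zero. Over the 13610 genes tested at both passages the median at passage 6 was 0.01. Of the 54 genes that fell at passage 3, 35 also fell at passage 6.

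**Figure D2:**
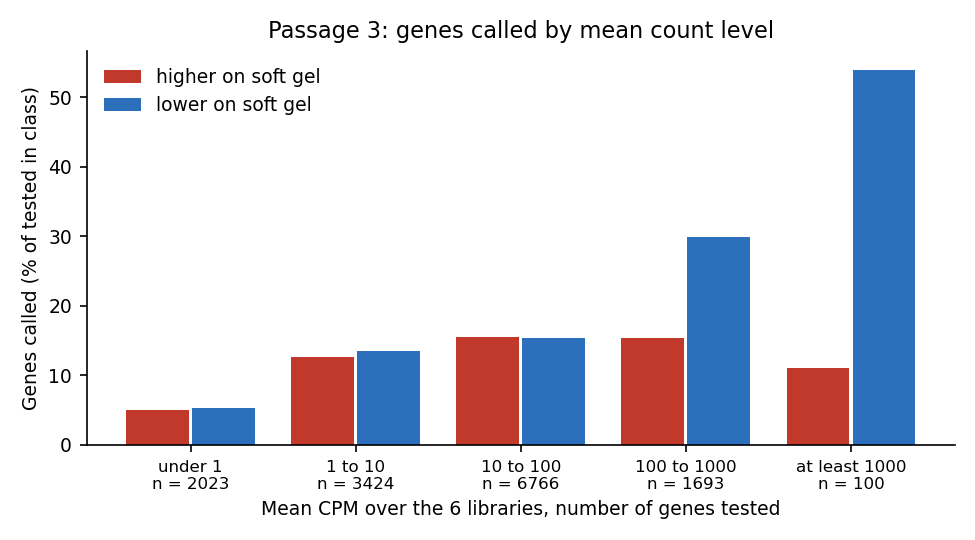
Percent of genes called higher (red bars) and lower (blue bars) on soft gel at passage 3, in classes of mean CPM over the 6 libraries, with the number of genes tested under each class. Among the 100 genes of at least 1000 CPM, 54 were called lower and 11 higher, while from 10 to 100 CPM 1048 were called higher and 1039 lower; these are TMM-scaled values, and with library totals the latter class had 2155 higher and 593 lower.

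The losses were more concentrated than the gains. A difference in CPM grows with the level of a gene, so this is not separate from the falls among the most counted genes. When each library was scaled by its total, so that gains and losses must sum to the same amount, 33 genes made up 50% of the loss on soft gel and 279 genes made up 50% of the gain. With TMM-scaled CPM the numbers were 48 and 179 genes. Genes called in the TMM fit held 97.3% of the library-total loss and 53.9% of the library-total gain. These shares mix scalings, since with library totals the median log2 fold change of all genes tested was 0.12. They were not computed with matched scaling. The 10 largest losses held 28.1% of the loss and the 10 largest gains 12.7% of the gain. Each of the 10 largest losses was called in the TMM fit, as were 6 of the 10 largest gains, with the same mix of scalings. The 10 most counted genes of a library took between 11.9% and 12.3% of its counts on plastic and between 11.1% and 11.2% on soft gel. That share was lower on soft gel in 3 of 3 pairs (exact sign-flip p = 0.25, the smallest possible).

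Few genes were silent on one substrate and detected in all 3 libraries of the other. Among all 32623 genes, 12553 had no count in any of the 12 libraries. At passage 3, 16953 genes had counts on both substrates. Another 967 had no count in the 3 plastic libraries and some count on soft gel, and 1065 showed the reverse. Only 42 and 56 of these were detected in all 3 libraries of the other substrate. Of the genes silent on plastic 2 passed the filter on low counts, which they could do only through their soft gel counts. Both were called higher on soft gel, the only direction open to them. None of the genes silent on soft gel passed that filter, so none was tested. The highest mean in the other group was 30.3 counts for a gene silent on plastic and 20.7 counts for a gene silent on soft gel. All but 2 of the 4020 called genes therefore had counts on both substrates. The filter left only these 2 silent genes to be called, so it largely set that count.

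The 4 genes shown are those with the largest fold changes in each direction among genes that were called, moved one way in all 3 pairs, had no overlap of the groups and averaged 5 CPM or more on the substrate where they were higher. ENSRNOG00000007545 stood at 0.635, 0.0151 and 0.222 CPM in plastic libraries 1, 2 and 3 and at 16.2, 6.45 and 7.19 CPM in the soft gel libraries. It was near the limit of detection on plastic, with 37, 1 and 13 counts, and well detected on soft gel, with 991, 382 and 448. Its log2 fold change was 5.24 ± 0.35 (SE, 3 pairs, edgeR adjusted p = 6.41e-06). ENSRNOG00000009465 stood at 0.360, 0.528 and 0.171 CPM on plastic and at 10.2, 12.9 and 11.1 CPM on soft gel. Its counts were low on plastic too, at 21, 35 and 10, so its fold change rests on small numbers there. The soft gel libraries agreed closely here, and the log2 fold change was 5.02 ± 0.24 (SE, 3 pairs, edgeR adjusted p = 7.75e-07).

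Both genes that fell were moderately counted on plastic and low, but detected in each library, on soft gel. Soft gel libraries 1, 2 and 3 held 17, 49 and 14 counts of ENSRNOG00000013916 and 23, 27 and 22 of ENSRNOG00000003171. ENSRNOG00000013916 stood at 8.08, 12.5 and 7.26 CPM on plastic and at 0.278, 0.827 and 0.225 CPM on soft gel. Pair 2 was highest on both substrates, and the level fell by 29.0-fold, 15.1-fold and 32.3-fold in pairs 1, 2 and 3. Its log2 fold change was -4.47 ± 0.23 (SE, 3 pairs, edgeR adjusted p = 1.33e-06). ENSRNOG00000003171 stood at 3.31, 6.26 and 6.94 CPM on plastic and at 0.376, 0.456 and 0.353 CPM on soft gel. The spread lay in the plastic libraries, and the log2 fold change was -3.75 ± 0.26 (SE, 3 pairs, edgeR adjusted p = 7.94e-06). The groups do not overlap for any of the 4 genes, which the rule that chose them required, and in all 35.2% of tested genes had no overlap between the substrates.

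**Figure D3:**
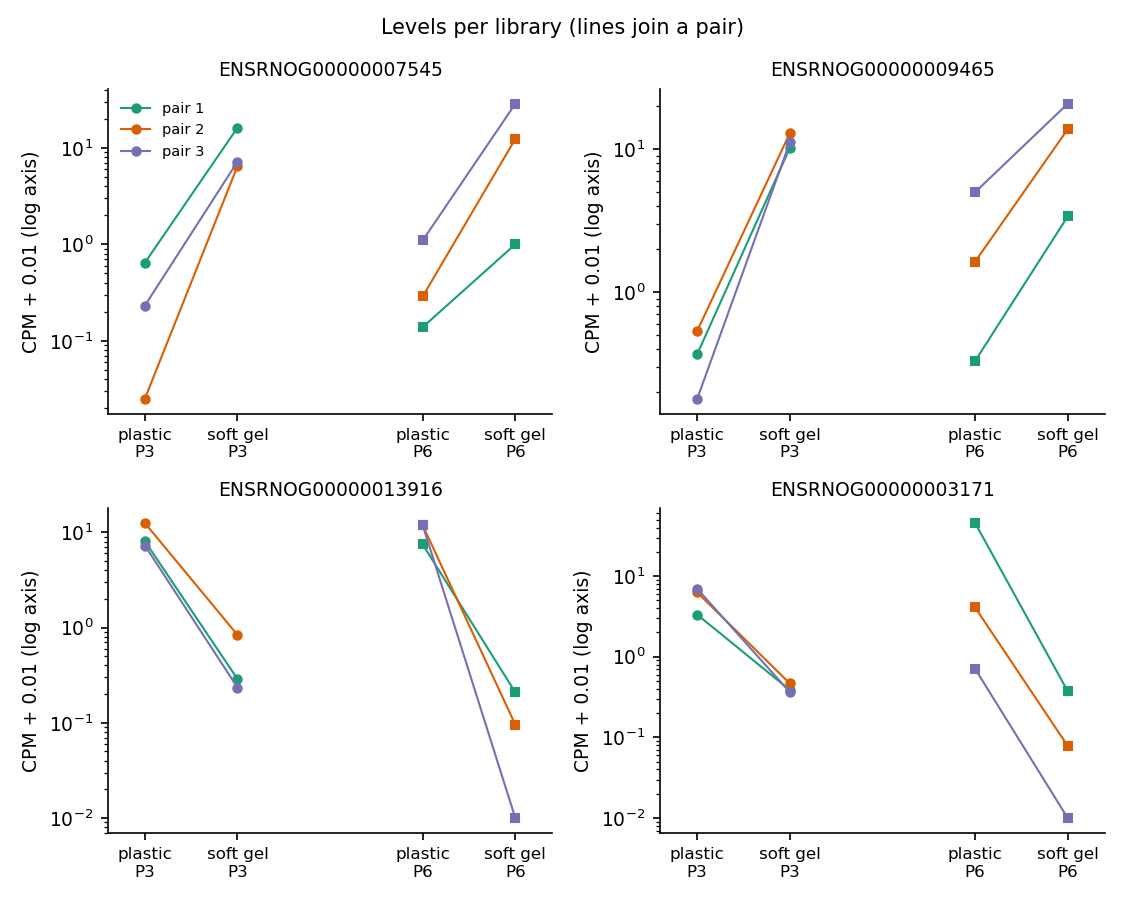
CPM plus 0.01 on a log axis in each library for the 4 genes shown by identifier, at passage 3 (circles) and passage 6 (squares), with a line joining the plastic and the soft gel library of a pair. All lines of a gene run in one direction at passage 3 (P3) and at passage 6 (P6), and the steepest line at passage 3 is that of pair 2 for ENSRNOG00000007545, whose plastic library held 1 count of it. Whether a pair number links the passages is not stated in the labels.

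How far the pairs repeat each other was described by leaving out 1 pair, calling genes from the other 2, and reading the ratio in the pair left out, which the calls had not used. The genes counted were also tested in the fit of all pairs. Without pair 1, 3412 genes were called and 96.2% had the same direction in pair 1. Without pair 2, 4466 were called and 91.6% had the same direction in pair 2. Without pair 3, 2806 were called and 98.2% had the same direction in pair 3. Over all genes tested, called or not, the shares were 74.1%, 72.0% and 76.7%. For genes called at 2-fold or more, the shares in the pair left out were 97.2%, 94.5% and 97.8%. The median log2 ratio in the called direction was 0.48, 0.40 and 0.52 in the pair left out, against 0.53, 0.43 and 0.61 in the pairs used, so the size was nearly kept. The ratios of 2 pairs correlated across the 14006 genes with Pearson's r of 0.694 for pairs 1 and 2, 0.785 for pairs 1 and 3 and 0.719 for pairs 2 and 3. The genes of these correlations share their libraries and are not independent replicates. Pair 2 had the lowest share of the 3 and stood furthest from the others in these correlations.

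**Figure D4:**
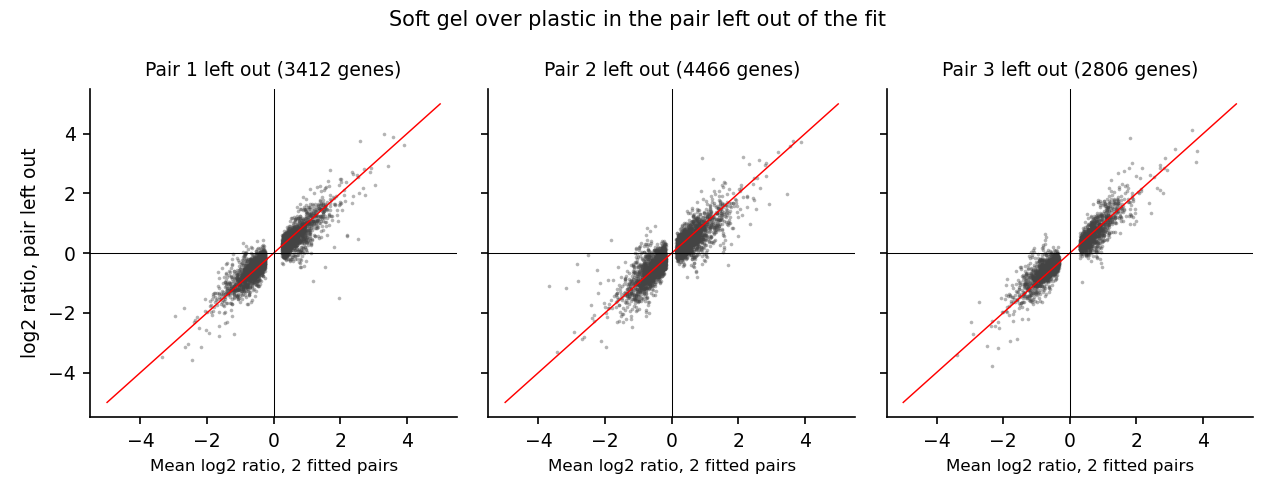
Log2 ratio of soft gel over plastic in the pair left out of the fit (vertical) against the mean log2 ratio of the 2 fitted pairs (horizontal), for the genes called from those 2 pairs; the red line marks equal values. Points at the lower left and upper right had the same direction in the pair left out, 96.2%, 91.6% and 98.2% of genes for pairs 1, 2 and 3.

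The genes called at passage 3 were also read in the 6 libraries of passage 6, which the calls had not used; the labels do not say whether the cells of the 2 passages came from the same cultures. In a separate paired fit there, 2225 of 14021 genes were called, 15.9%, and the common biological coefficient of variation was 16.4% against 9.41% at passage 3, so fewer calls at passage 6 do not show a smaller response. Of the 3977 genes called at passage 3 and tested at both, 89.3% had the same sign at passage 6, against 63.7% of genes not called and 71.2% of all genes. Among those with at least 2-fold changes, 728 of 776 kept the sign. For the 397 such genes higher on soft gel the median log2 difference was 1.54 in the passage 3 fit and 1.36 in that of passage 6, and for the 379 lower ones it was -1.36 and -1.10. These genes were chosen by their size at passage 3, so the smaller medians at passage 6 do not show a weaker response. Called in the same direction at both passages were 760 higher and 716 lower genes, 37.1% of the passage 3 list and 67.5% of the passage 6 list, while 40 were called in opposite directions. Without the pair term in either fit, 112 genes were called in the same direction at both.

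**Figure D5:**
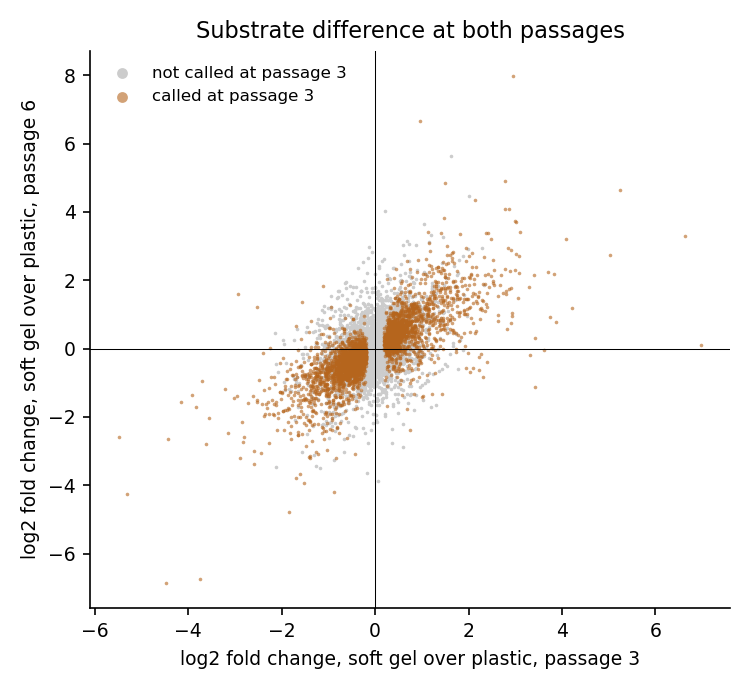
Log2 fold change of soft gel over plastic at passage 6 (vertical) against passage 3 (horizontal) for genes tested at both. Brown points were called at passage 3 and grey points were not; of the brown points 89.3% have the same sign at passage 6.

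Whether the difference between substrates itself differed between the passages was tested as an interaction in all 12 libraries. Of 14660 genes, 314 passed, 2.14%, and 204 of them were among the 4020 called at passage 3. In that fit the substrate difference of the 204 had opposite signs at the 2 passages in 95 genes, was larger in size at passage 6 in 77 and smaller there in 32. The interaction count was sensitive to single pairs, with 34, 43 and 33 genes without pair 1, 2 or 3 of passage 3, 476 without pair 2 of passage 6 and 145 without pair 3 of passage 6. Without the pair term it was 0 in edgeR, with 1044 genes at an unadjusted p under 0.05, and DESeq2 with the pair term called 719.

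At passage 6 the 4 genes shown moved in the same direction as at passage 3. ENSRNOG00000007545 went from 0.129, 0.279 and 1.09 CPM in the plastic libraries to 0.993, 12.4 and 28.7 CPM in the soft gel ones, a log2 fold change of 4.65 ± 0.41 (SE, 3 pairs, edgeR adjusted p = 0.00276). Its soft gel libraries spread more than at passage 3, the ranges of the substrates overlapped, and the interaction was -0.62 ± 0.68 (edgeR adjusted p = 0.730). ENSRNOG00000009465 went from 0.322, 1.63 and 4.99 CPM in the plastic libraries to 3.38, 13.8 and 20.7 CPM in the soft gel ones, ranges that also overlapped, a log2 fold change of 2.74 ± 0.29 (SE, 3 pairs, edgeR adjusted p = 0.00445). Its substrate difference was smaller than at passage 3, with an interaction of -2.32 ± 0.43 on the log2 scale (edgeR adjusted p = 0.0351), a call that was lost without any one pair of passage 3 (edgeR adjusted p = 0.119 to 0.125) and without pair 3 of passage 6 (edgeR adjusted p = 0.0862).

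ENSRNOG00000013916 went at passage 6 from 7.46, 11.8 and 11.9 CPM in the plastic libraries to 0.199, 0.0856 and 0 CPM in the soft gel ones, the last of which held no count of it. The fitted log2 fold change was -6.85 ± 0.73 (SE, 3 pairs, edgeR adjusted p = 0.00456). Its interaction was -2.34 ± 0.80 and did not pass (edgeR adjusted p = 0.193), but passed without pair 1 of passage 6 at -3.76 (edgeR adjusted p = 0.0358). ENSRNOG00000003171 went from 45.5, 4.07 and 0.698 CPM in the plastic libraries to 0.364, 0.0684 and 0 CPM in the soft gel ones, with a fitted log2 fold change of -6.75 ± 0.32 (SE, 3 pairs, edgeR adjusted p = 0.000902). The soft gel libraries of passage 6 held only 22, 4 and 0 counts of it. Plastic library 1 of passage 6 was far above the others, while the ratio within pairs was large in each pair. Its fall was deeper than at passage 3, with an interaction of -3.02 ± 0.45 on the log2 scale (edgeR adjusted p = 0.0168), which became -2.41 without pair 1 of passage 6 (edgeR adjusted p = 0.133). Leaving out passage 3 pair 1 or pair 2 ended the call too (edgeR adjusted p = 0.0572 and 0.0910).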

How the data were processed

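Messenger RNA was selected and read from both ends, 150 bases each, per the labels' protocols. The authors deposited unnormalized counts per library for Ensembl rat genes. Rnor_6.0 is the build, and HISAT2 2.1.0, Cuffnorm 2.2.1, Cufflinks and FastQC 0.11.5 are the tools named, per the submitters' processing notes. How reads were counted, on which strand and against which annotation release is not given in the sources used here, so overlapping or near-identical genes may share reads. Of 32623 identifiers, 0 matched the GRCr8 RefSeq table, and the 45 gene lists, the cell type markers and the promoter motifs could not be tested.

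Genes were filtered with filterByExpr by group (minimum count 10, minimum total 15) and scaled by TMM. The 6 passage 3 libraries were tested with edgeR's quasi-likelihood F test with the replicate number as a pair term, Benjamini-Hochberg adjusted over all genes tested (threshold 0.05). Passage 6 had its own fit, and the interaction used all 12 libraries with a term for each passage and number. The interaction fit pools the spread of both passages. Standard errors are the fold change over the root of its F statistic. Ratios of a pair are log2 of CPM plus 0.5. Principal components used log2 of CPM plus 2. The fits were also run on counts simulated from the same model, which cannot show whether that model suits these data.

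Departures from the group mean correlated, between a plastic and a soft gel library of one number, at 0.419, 0.537 and 0.637 for numbers 1, 2 and 3, and between libraries of different number they ran from -0.477 to -0.0938. The pair term was set by the definition of the comparison, and the labels do not state a pairing. Departures cancel within each group of 3, so positive values at equal number go with negative ones at different number. Replicates are called biological there, without naming animals or cultures, so p-values cover the spread among the libraries, which may be technical. Counts carry no molecular identifiers.

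The genes shown were, per direction, the 2 with the largest fold change among those called, moved alike in all 3 pairs, without overlap and at 5 CPM or more in the higher group. The comparison, lists and rules were chosen with earlier results of these data known. Software was R 4.3.3, edgeR 4.0.16, limma 3.58.1, DESeq2 1.42.0, Python 3.11.15, numpy 2.4.6, pandas 2.3.3 and matplotlib 3.10.9.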

Additional observations from a re-analysis of the deposited data

Results flagged for a closer look

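The substrate difference of 2 of the genes shown differed between the passages by the interaction test with pairs. For ENSRNOG00000009465 the log2 fold change of soft gel over plastic was lower at passage 6 than at passage 3 by a difference of -2.32 (edgeR adjusted p = 0.0351). That call was lost without any one pair of passage 3, at adjusted p between 0.119 and 0.125, and without pair 3 of passage 6, at 0.0862. For ENSRNOG00000003171 the difference was -3.02 (edgeR adjusted p = 0.0168), and the call was lost without pair 1 or 2 of passage 3, at 0.0572 and 0.0910, and without pair 1 of passage 6, at 0.133. Without pairs neither gene passed the interaction test in edgeR, at adjusted p = 0.715 and 0.832.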

How the results depend on the processing

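The 4020 genes called became 2109 with no replicate block, and were between 2749 and 4929 under the other alternatives, 2815 to 4499 when a pair was left out. The fit of all 12 libraries gave 2749, and thinning to the smallest library, which removes the depth difference between the substrates, gave 4042. Scaling by library totals, and the TMM-scaled repeat of the gains and losses, were chosen after seeing the data. The genes called in the same direction at both passages were 1476, became 112 with no replicate block and ran from 1206 to 1551 without 1 pair of passage 3. The mean share of calls with the same direction in the pair left out was 95.4%, 99.2% with no replicate block and 91.3% with library totals. The 54 genes of at least 1000 CPM that fell were 42 to 56 under all alternatives and 46 to 56 without a pair. The interaction count of 314 became 0 with no replicate block and 719 in DESeq2, and ran from 33 to 476 without a pair. The fold changes of the 4 genes shown passed at passage 3 in all 48 repeats, with adjusted p up to 0.00367. The 4 genes were chosen from these same libraries for large and agreeing differences, so the repeats could hardly fail and are no independent check. The alternative window for promoter motifs was not run, since no gene could be matched to a promoter. Fits without a pair rest on 2 pairs, and depth limits what can be said of genes under 1 CPM, where the median standard error was 0.51 on the log2 scale and each of the 209 called genes differed by at least 2-fold.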
